A study of Mus musculus with 8 samples.

Results

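The nuclear factor I (NFI) family has 4 genes in the mouse, Nfia, Nfib, Nfic and Nfix. The PRDM16-enriched regions around them were chosen by position. A region belonged to an NFI gene when its summit lay in the gene body, or within 100 kb of the nearer gene end with no closer protein-coding gene. This gave 144 of the 48145 regions in the 4 peak lists. They fell at 88 separate sites once touching regions of different lists were joined. A region here is a peak of 1 list, and a site is a set of touching regions.

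The lists come from chromatin immunoprecipitation and sequencing (ChIP-seq) with a PRDM16 antibody in whole cortex lysates of E15.5 mouse embryos. The 2 wild-type (WT) libraries were Prdm16 flox/flox, with no Cre named in their labels. The 2 conditional knockout (cKO) libraries were Emx1Ires-Cre; Prdm16flox/flox, so both groups carry the floxed alleles. Cre from the Emx1 locus acts in the dorsal telencephalic lineage, so cells of other origins in a whole cortex, such as vessel cells, microglia and ventrally born interneurons, keep an intact Prdm16. No label says whether embryos were pooled, or whether the libraries of a genotype came from separate embryos. Peak lists do not measure expression, so neither the tissue nor the loss of Prdm16 was checked against marker genes.

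NFI proteins bind DNA as dimers at palindromes built from the core TTGGC. In the embryonic cortex NFIA, NFIB and NFIX are made in radial glia, the neural stem cells, where they promote differentiation and the start of astrocyte formation, and mice lacking them have defects of the corpus callosum and hippocampus. NFIC is best known for its role in tooth root formation. PRDM16, a zinc-finger protein, regulates transcription in radial glia, and the WT against cKO comparison asks which of its sites depend on the gene.

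The lists differ in length and in background. WT replicates 1 and 2 held 13852 and 26652 regions, and cKO replicates 1 and 2 held 4553 and 3088. The lists carry no read totals, but the number of reads stacked at each summit (the pileup) can be solved from the listed fold enrichment and p-value. The median local background at summits was 0.985 and 2.32 reads in WT replicates 1 and 2, and 3.72 and 3.26 reads in cKO replicates 1 and 2. The shorter cKO lists thus came with the higher background pileup. In the peak names 1 library identifier goes with WT and another with cKO, so genotype and whatever this identifier marks cannot be told apart.

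Of the windows around annotated gene starts, 6 touched an NFI site. Shown are the 3 that touched a site of both WT lists, and 1 of Nfix itself. A region can touch a window while its summit lies outside it. The sequences are from RefSeq, build GRCm38.p6, which is mm10. Each runs 5′ to 3′ on the gene's strand from 250 bases before the start to 50 after it. Capitals mark matches on either strand to the E-box CANNTG, the NFI core TTGGC and the GATA core AGATAA. The Nfia window, on chr4:97581693-97581992 (plus strand), held the summits of both WT libraries, at base 286 in replicate 1 and base 189 in replicate 2. The windows of 2 long noncoding RNA genes follow: Gm11266, which starts beside Nfib at chr4:82507739-82508038 (plus strand), and G430095P16Rik, inside the Nfix body at chr8:84722807-84723106 (plus strand). Neither of these 2 windows held a WT summit. The last is the outermost of 4 Nfix start windows, chr8:84780033-84780332 (minus strand), which touched a region of WT replicate 1 alone.
Nfia start: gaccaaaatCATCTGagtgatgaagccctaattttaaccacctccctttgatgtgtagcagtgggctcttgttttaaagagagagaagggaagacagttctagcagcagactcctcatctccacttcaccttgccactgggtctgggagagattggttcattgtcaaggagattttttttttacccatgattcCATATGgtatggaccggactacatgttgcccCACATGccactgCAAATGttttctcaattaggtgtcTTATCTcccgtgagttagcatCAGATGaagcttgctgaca
Gm11266 start: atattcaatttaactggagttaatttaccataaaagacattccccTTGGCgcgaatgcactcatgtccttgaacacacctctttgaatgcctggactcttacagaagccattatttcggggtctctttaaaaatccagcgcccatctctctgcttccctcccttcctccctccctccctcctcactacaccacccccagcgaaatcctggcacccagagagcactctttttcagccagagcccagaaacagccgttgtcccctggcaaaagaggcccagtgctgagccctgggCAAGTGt
G430095P16Rik start: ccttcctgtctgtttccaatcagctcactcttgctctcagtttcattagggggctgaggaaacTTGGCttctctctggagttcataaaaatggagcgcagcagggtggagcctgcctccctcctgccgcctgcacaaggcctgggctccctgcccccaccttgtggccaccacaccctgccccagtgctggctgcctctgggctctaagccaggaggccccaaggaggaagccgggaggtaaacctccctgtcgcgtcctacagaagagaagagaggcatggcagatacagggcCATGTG
Nfix outermost start: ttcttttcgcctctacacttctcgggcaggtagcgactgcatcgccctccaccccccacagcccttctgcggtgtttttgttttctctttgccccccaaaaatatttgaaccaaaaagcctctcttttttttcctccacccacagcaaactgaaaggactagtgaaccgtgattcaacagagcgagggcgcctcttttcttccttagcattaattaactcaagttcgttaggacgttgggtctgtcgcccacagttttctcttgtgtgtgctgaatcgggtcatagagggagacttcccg

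The Nfia window held 5 matches to CANNTG and 1 to AGATAA, at bases 261 to 266, and no match to TTGGC. Over 32851 start windows of the same length, 72.3% held CANNTG, 46.7% TTGGC and 11.2% AGATAA. The Gm11266 and G430095P16Rik windows each held 1 TTGGC and 1 CANNTG, and the Nfix window held none of these. The NFI palindrome (TTGGC, then any 5 bases, then GCCAA) contains the core and was in 12 of the 32851 windows (0.0365%) and in none of the 4 shown. CAGCTG, a form of CANNTG that proneural factors bind and so counted under both, was in 16.3% of all windows and in none of the 4. These are letter matches in a window and say nothing of binding by any factor.

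PRDM16-enriched regions at the NFI genes were more numerous in both WT libraries than in either cKO library. Together, 47 and 79 regions of WT replicates 1 and 2 belonged to the 4 genes, against 11 and 7 of cKO replicates 1 and 2. The cKO numbers were below both WT numbers, with means of 63 ± 22.6 and 9 ± 2.83 (SD, n = 2 each), a ratio of 7. An exact two-sided permutation test over the 4 libraries gave p = 0.333, the smallest value that 2 against 2 allow, so no count in this comparison could pass. Cutting each list to its 3088 regions of smallest p left 13 and 13 NFI regions in WT and 8 and 7 in cKO, a ratio of 1.73.

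**Figure D1:**
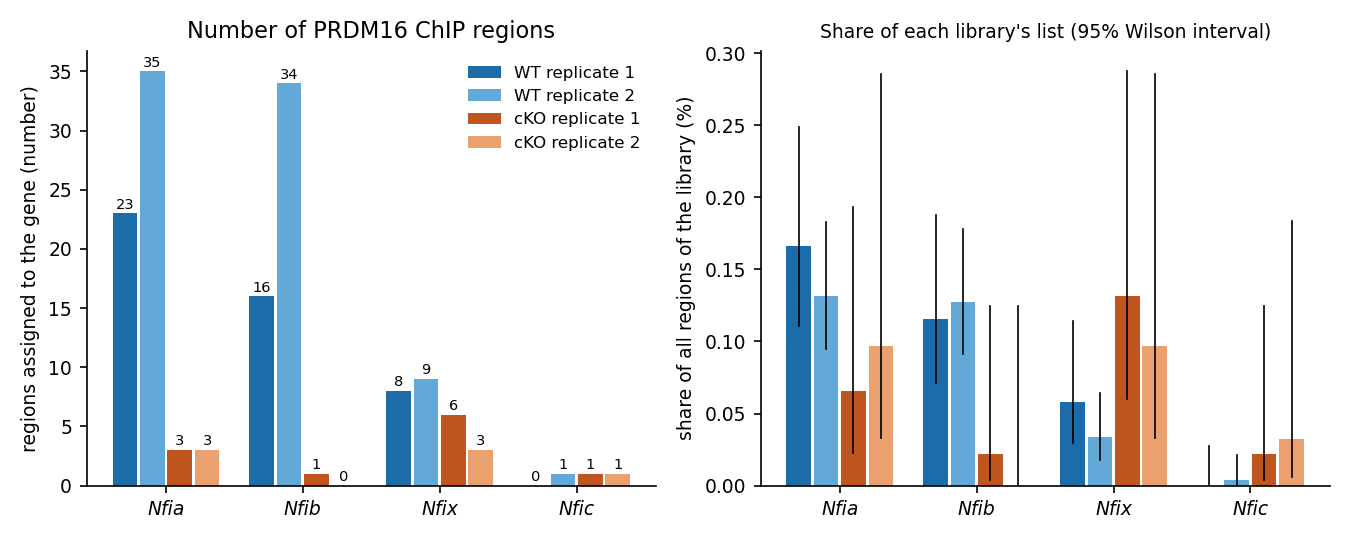
Bars give, for each NFI gene and library, the number of assigned regions (left) and that number as a percentage of the library's whole list (right), with 95% Wilson intervals as black lines. Nfia and Nfib had more regions and a larger share of the list in both WT libraries than in either cKO library. With only regions of −log10 q of at least 5, the Nfia shares overlapped between genotypes. Nfix had more regions (fewer once lists were cut to equal length) but a smaller share.

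Relative to list length the family difference was smaller. NFI regions made up 0.339% (95% Wilson interval 0.255 to 0.451) and 0.296% (0.238 to 0.369) of the WT lists, and 0.242% (0.135 to 0.432) and 0.227% (0.110 to 0.467) of the cKO lists. The cKO shares lay below the WT shares, but each cKO interval contains both WT values (exact two-sided permutation p = 0.333). With only regions of −log10 q of at least 5, the shares overlapped between genotypes, at 0.364% and 0.321% in WT and 0.274% and 0.355% in cKO. Intervals cover counting error only.

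By gene, Nfia held 23 and 35 regions in WT replicates 1 and 2 and 3 in each cKO replicate. Nfib held 16 and 34 in WT, and 1 and 0 in cKO replicates 1 and 2. Nfix held 8 and 9 in WT, and 6 and 3 in cKO replicates 1 and 2. Nfic held 0 and 1 in WT and 1 in each cKO library, so only for Nfic did the genotypes overlap. Of all 21883 protein-coding genes, 15.7% had more regions in each WT list than in each cKO list, as Nfia, Nfib and, in the full lists, Nfix did. More in each cKO list were found at 1.7%, and at no NFI gene.

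As shares of the lists, Nfib and Nfix went opposite ways. Nfib took 0.116% and 0.128% of the WT lists, and 0.0220% and 0% of the cKO lists. The absence in cKO replicate 2 allows 3 regions, a share of up to 0.0972%, or up to 0.124% by its Wilson interval. The interval of cKO replicate 1 also reached 0.124%. Both contain the share of WT replicate 1 but not that of WT replicate 2. Nfix took 0.0578% and 0.0338% of the WT lists, and 0.132% and 0.0972% of the cKO lists. Each WT interval of Nfix overlapped each cKO interval, as with 0.0293 to 0.114 in WT replicate 1 and 0.0604 to 0.287 in cKO replicate 1. Nfia followed Nfib in the full lists, with 0.166% and 0.131% in WT against 0.0659% and 0.0972% in cKO. With only regions of −log10 q of at least 5, Nfia held 18 and 26 in WT and 3 in each cKO library. Its shares of those lists then overlapped between genotypes. Nfic, with at most 1 region per library, went the way of Nfix, with 0% and 0.00375% in WT against 0.0220% and 0.0324% in cKO. A smaller share of each cKO list than of each WT list was found for 12.5% of all protein-coding genes, and a larger share for 6.6%. Among regions of Nfib and Nfix together, Nfix made up 33.3% and 20.9% in WT replicates 1 and 2, against 85.7% and 100% in cKO replicates 1 and 2. This difference between the genes reached only the smallest possible value (exact two-sided permutation p = 0.333). The pairs Nfix with Nfia and Nfia with Nfib gave the same value. None of these pair comparisons was among the planned tests, and the cKO percentages rest on few regions. With lists cut to equal length, Nfix had 2 regions in each WT library against 4 and 3 in cKO, the reverse of its full counts. Nfib then had 4 and 6 against 0 and 0, and Nfic 0 and 0 against 1 and 1.

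Nfia and Nfib ranked near the top of the genome in WT-only sites. A WT-only site was called in both WT lists and overlapped no region of either cKO list. Nfia carried 17 such sites, and 3 of the 21883 protein-coding genes carried more. Nfib carried 14, and 9 genes carried more. Nfix carried 5 and Nfic 0. At least 10 WT-only sites were found at 0.219% of protein-coding genes, at least 5 at 1.33% and at least 1 at 16.6%. With lists cut to equal length Nfia had 4 WT-only sites, Nfib 3 and Nfix 0. Without WT replicate 1, the shorter WT list, a site needed a call in WT replicate 2 alone, and the family's 36 WT-only sites became 76.

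The genes differ in length. The assigned territory (gene body and flanks) spanned 740.8 kb for Nfia, 416.6 kb for Nfib, 103.6 kb for Nfix and 49.9 kb for Nfic. Per 100 kb of territory, Nfia held 3.10 and 4.72 regions in WT replicates 1 and 2, Nfib 3.84 and 8.16, and Nfix 7.72 and 8.69. Over the territories of all protein-coding genes the WT densities were 0.590 and 1.15, and the cKO densities 0.227 and 0.153. By territory density Nfix therefore led the family, and 1.17% and 2.25% of genes were denser than Nfix in WT replicates 1 and 2. For Nfib 3.85% and 2.54% of genes were denser, and for Nfia 5.13% and 6.53%. The lead depends on the flanks, which added 100 kb on each side of Nfia and Nfib but 0 and 7083 bp at Nfix. In the bodies alone, Nfix held 8 and 9 regions over 96.5 kb in WT replicates 1 and 2. Nfib held 10 and 21 over 216.6 kb, so in WT replicate 2 Nfib was the denser. In the cKO libraries Nfix held 5.79 and 2.90 per 100 kb and Nfia 0.405 in each, all above the density over all genes. Nfib held 0.240 and 0, near it in replicate 1 and below it in replicate 2. By number of regions, Nfix ranked higher in the cKO lists, where 5 and 8 genes had more, than in the WT lists, where 132 and 381 had more. For Nfia 4 and 6 genes had more in WT replicates 1 and 2, against 31 and 8 in cKO.

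**Figure D2:**
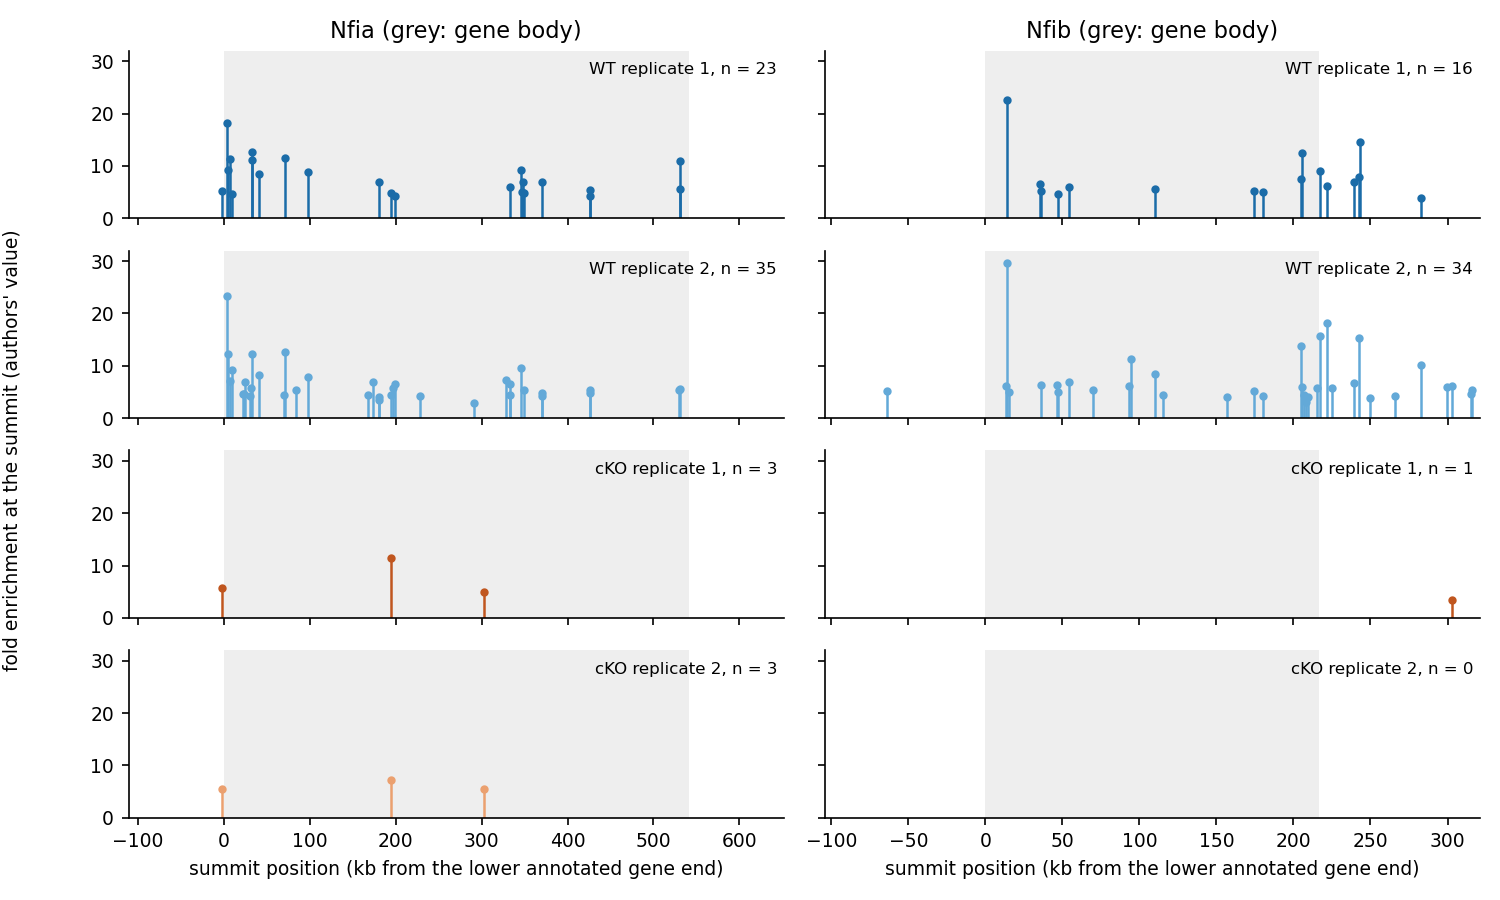
Each stem is a region at its summit, in kb from the lower annotated end of Nfia (left) or Nfib (right), with its height the authors' fold enrichment; rows are libraries and grey marks the gene body. The highest stem of both WT replicates is near the lower end of each gene by coordinate. At Nfia this is the side of its listed start, while no strand or listed start was given for Nfib. WT replicate 2 adds 16 sites at Nfia and 18 at Nfib found in no other list. The cKO rows hold 3 stems per library at Nfia and 1 or 0 at Nfib.

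Nfia spans chr4:97578066-98118876. Its strongest site, chr4:97581332-97582220, covered the annotated start shown above, with WT summits 35 and 62 bp from that start. Fold enrichment there was 18.2 in WT replicate 1 and 23.4 in WT replicate 2 (20.8 ± 3.63, n = 2), from pileups of 38 and 76 reads over backgrounds of 1.14 and 2.30. Neither cKO list held a region there. Of the 10090 sites in both WT lists genome-wide, 405 had a higher mean fold. Next came chr4:97609727-97611960, with 12.6 and 12.3 in WT replicates 1 and 2, and chr4:97648801-97649869, with 11.5 and 12.6. Both lie in the gene body, 33044 and 71157 bp from its lower end, and neither was called in cKO.

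The stronger Nfia sites sat toward its lower end. The listed start, chr4:97581943, lies inside the body, and no Nfia site had its highest summit within 1 kb of either gene end. Of its 17 WT-only sites, all in the body, 8 had their summit within 100 kb of the lower end, a stretch that makes up 18.5% of the body. The median of their mean folds was 9.98, against 5.81 for the other 9. All 4 Nfia sites with a mean fold above 10 were among the 8. Neighbouring WT-only sites were a median of 20117 bp apart, with the widest gap at 134206 bp. Of the 17 sites, 5 overlapped a noncoding gene of the annotation, among them E130114P18Rik, which overlaps the Nfia start. WT replicate 2 called 16 further Nfia sites alone, up to 7.34-fold at chr4:97906476-97906763, and WT replicate 1 called 1 alone, chr4:98108389-98108627, at 5.65-fold.

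Nfib, on chr4:82290173-82506751, held the family's strongest site. It lay in the gene body at chr4:82304034-82305065, 14384 bp from the lower end and 202194 bp from the upper end. Which end of Nfib holds its start was not given. Fold enrichment was 22.7 in WT replicate 1 and 29.6 in WT replicate 2 (26.1 ± 4.89, n = 2), from pileups of 44 and 100 reads, and 179 of the 10090 sites in both WT lists were stronger. Neither cKO list held a region there. The smallest fold that could have passed at the median background was 3.18 in cKO replicate 1 and 3.29 in cKO replicate 2. The lists give no cKO background at this site, so the limit that held there is not known.

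A second group of Nfib sites lay at and beyond the upper gene end. The site chr4:82506775-82507999, with its highest summit 834 bp outside the gene, touched the Gm11266 start window shown above, though both summits lay before the window. It reached 9.04 in WT replicate 1 and 15.6 in WT replicate 2 (12.3 ± 4.65, n = 2). The second-strongest Nfib site, chr4:82532105-82533601, lay 26272 bp outside the gene in the body of Gm11266, with 14.6 and 15.3 (14.9 ± 0.501, n = 2). Close behind the named 3 was chr4:82511480-82512021, where the replicates differed most, with 6.16 and 18.2. Of the 14 Nfib WT-only sites, 9 lay in the body and 5 beyond the upper end. WT replicate 2 alone called 18 more sites, up to 11.3-fold at chr4:82383768-82384922. Among these 18, chr4:82505664-82505866 at 5.67-fold lay 997 bp inside the upper gene end. WT replicate 1 called 0 alone.

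Nfib had almost no region in the cKO. The single cKO region, in replicate 1, lay at chr4:82592829-82592994, 86139 bp outside the gene, with a fold of 3.38 from 20 reads over a background of 5.21. It overlapped a 6.23-fold region of WT replicate 2. Within 50 kb of the gene the cKO lists held 0 and 0 Nfib regions, against 15 and 28 in the longer WT lists. Under the 100 kb rule, 16.4% and 11.8% of all protein-coding genes had at least 1 region in cKO replicates 1 and 2. In WT replicates 1 and 2 the proportions were 23.6% and 34.5%. Most genes thus had no cKO region.

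**Figure D3:**
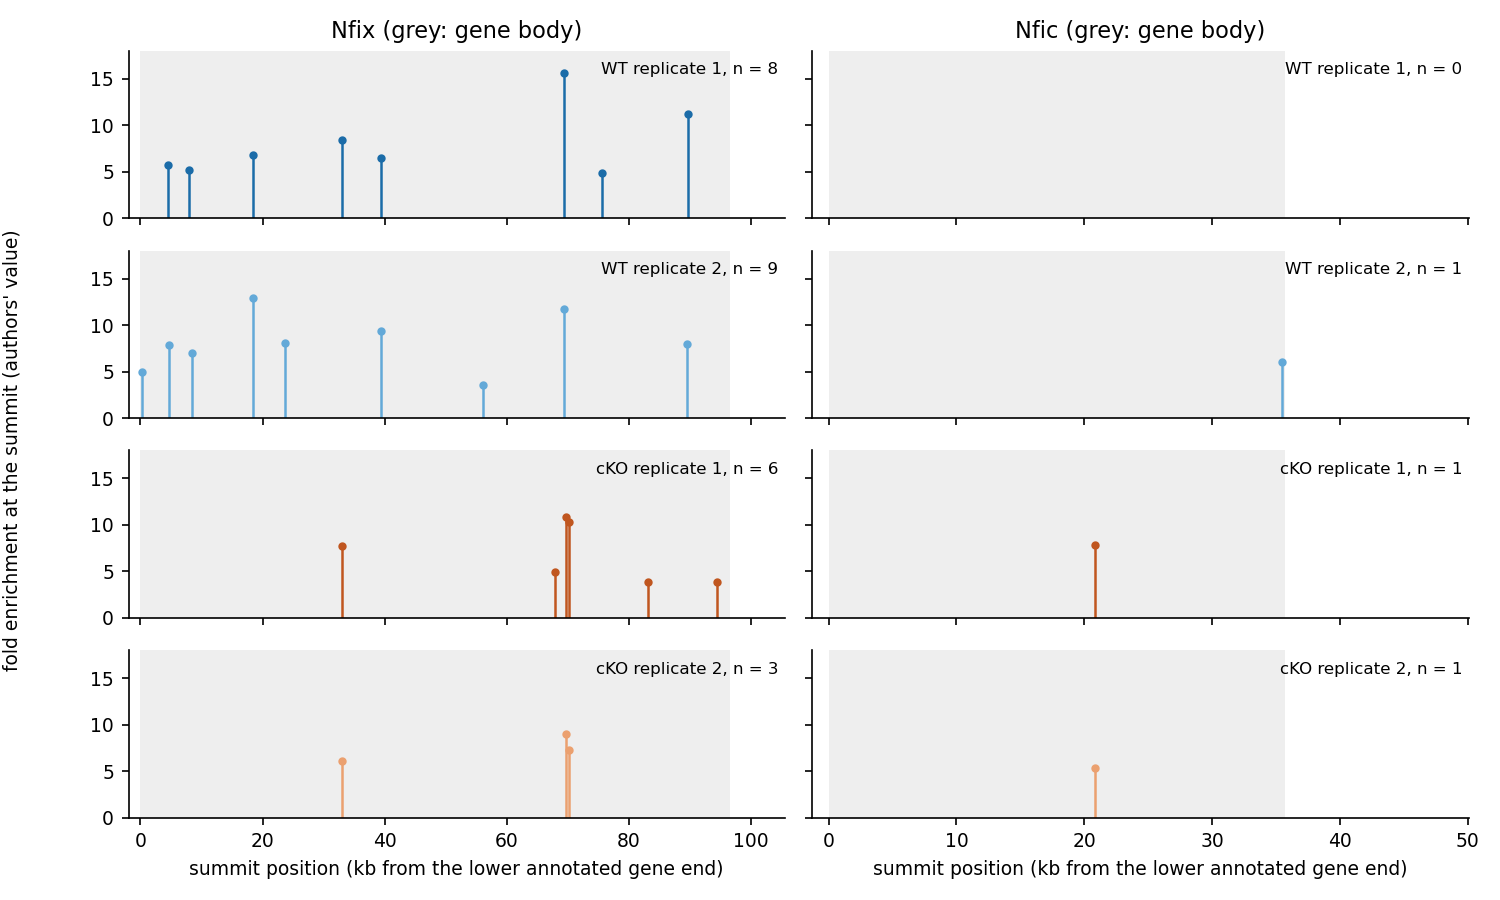
Stems as for Nfia and Nfib, here for Nfix (left) and Nfic (right), with grey for the gene body and height the authors' fold enrichment. At Nfix all 4 libraries have stems between 69 and 71 kb from the lower end, and the cKO rows add stems that no WT row has; at Nfic the WT and cKO stems lie at different places.

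Nfix, on chr8:84704712-84801238, had regions in both genotypes. Its strongest site in WT, chr8:84773733-84774696, was also the only Nfix site in all 4 lists. Fold enrichment was 15.7 and 11.7 in WT replicates 1 and 2 (13.7 ± 2.78, n = 2), against 10.8 and 9.01 in cKO replicates 1 and 2. The pileups were 27 and 37 reads in WT and 48 and 41 in cKO. These folds rest on different backgrounds and were not compared as a change.

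The Nfix regions of the genotypes overlapped there, but their summits did not coincide. The WT summits were 31 bp apart. Both cKO summits lay to the upper side, 315 and 327 bp from the summit of WT replicate 1 and 346 and 358 bp from that of WT replicate 2. Among the 458 regions in all 4 lists genome-wide, the closest WT and cKO summits were over 200 bp apart in 6.99%, with a median of 18.5 bp. When summits within 200 bp were required in place of overlap, the Nfix site no longer counted as shared. Both cKO libraries held a further region next to it, chr8:84774780-84775051, at 10.4 and 7.29, where neither WT list had any.

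Several of these Nfix regions lay by start sites that RefSeq lists inside the gene. Of 4 listed starts, the nearest to the shared site was 627 and 596 bp from the WT summits and 942 and 954 bp from the cKO summits. The neighbouring cKO region had summits 867 and 941 bp from another. In all, 2 of 8 and 1 of 9 WT regions of Nfix lay within 1 kb of a listed start, and 3 of 6 and 2 of 3 cKO regions. Over all genes with a listed start, 13.1% and 13.4% of WT regions and 44.1% and 45.7% of cKO regions lay that close to a start of their own gene. The cKO proportion was thus the larger over all genes too. At Nfia the count was 1 in each WT library and 0 in each cKO library.

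**Figure D4:**
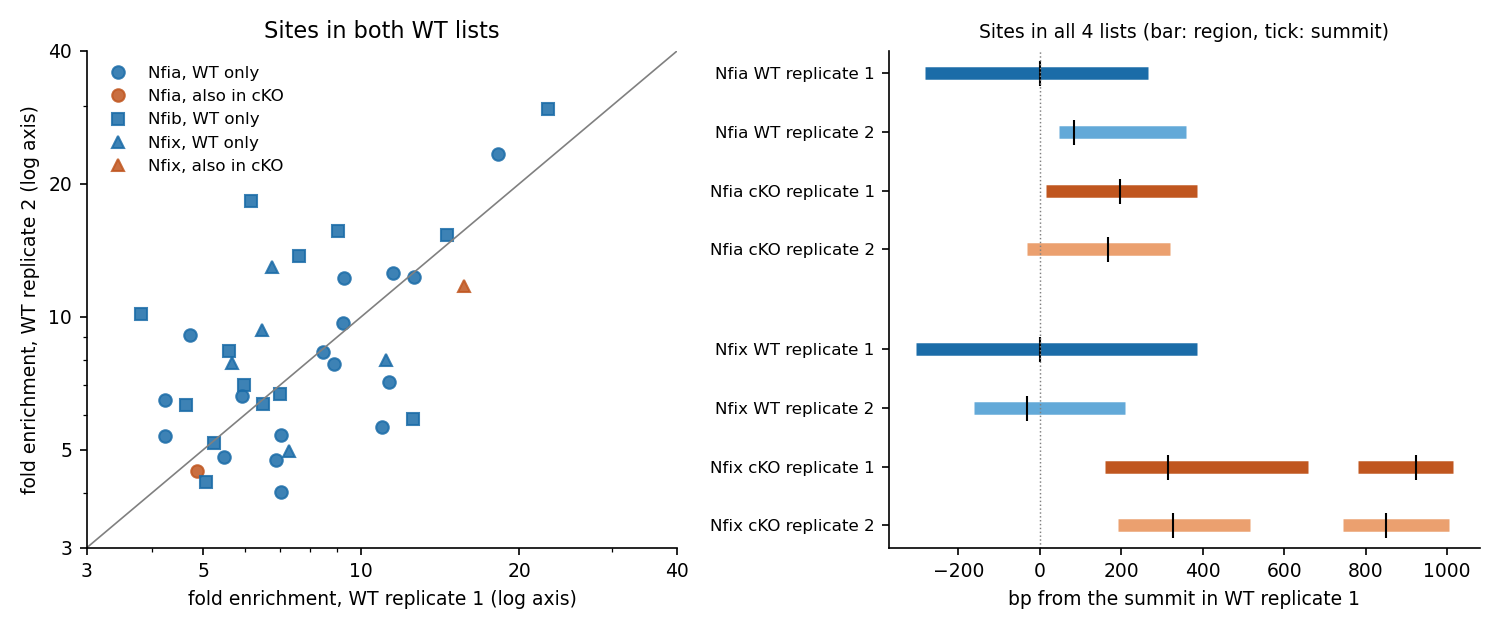
Left, fold enrichment in WT replicate 1 against WT replicate 2 for the 38 sites in both WT lists, on log axes with the line of equality; orange marks the 2 also called in cKO. Right, extent (bar) and summit (tick) of each region at those 2 sites, in bp from the WT replicate 1 summit: the cKO summits of Nfix lie 315 and 327 bp away, and the second bars are the neighbouring cKO regions.

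The other Nfix sites of both WT lists were not called in cKO. The strongest was chr8:84722748-84723392, touching the G430095P16Rik start window, with 6.75 in WT replicate 1 and 12.9 in WT replicate 2 (9.84 ± 4.37, n = 2). Both of its summits lay beyond that window. The next was chr8:84793951-84794445, with 11.2 and 7.99 (9.58 ± 2.24, n = 2). At the lower gene end, chr8:84704406-84705060 reached 7.28 and 4.98; its WT replicate 1 summit lies in the adjoining gene Lyl1, to which that region belongs by the position rule. WT replicate 2 alone called 3 sites, up to 8.11-fold at chr8:84728071-84728762, and WT replicate 1 alone called 2, chr8:84712492-84712695 at 5.24-fold and chr8:84780136-84780302, 193 bp from the outermost listed start, at 4.91-fold. A site at chr8:84737603-84737865 was called in WT replicate 1 (8.44) and in cKO replicates 1 and 2 (7.78 and 6.07), but not in WT replicate 2, the longest list. The other cKO regions of Nfix, in replicate 1 alone, were weaker: chr8:84772540-84772711, 195 bp from a listed start, at 4.90-fold, chr8:84787698-84787894 at 3.90-fold and chr8:84799154-84799341 at 3.83-fold.

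Nfia also had a few regions in the cKO. A body site, chr4:97772127-97772797, was in all 4 lists, with 4.88 and 4.49 in WT replicates 1 and 2, against 11.4 and 7.16 in cKO replicates 1 and 2. It was the weakest of the 18 Nfia sites in both WT lists and the strongest Nfia region in each cKO list. Each cKO fold lay above each WT fold, as at 27.1% of the 458 regions found in all 4 lists. The pileups were 15 and 16 reads in WT, over backgrounds of 2.28 and 2.79. In cKO they were 54 and 29 reads, over 3.83 and 3.19. As at Nfix, the folds rest on different backgrounds and were not compared as a change. The cKO summits lay 84 to 197 bp from those of WT. A site 2361 bp outside the lower end, chr4:97575553-97575776, had 5.14 in WT replicate 1 and 5.73 and 5.56 in cKO. Another, chr4:97880390-97880695, was in both cKO lists (5.03 and 5.59) and in neither WT list.

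Nfic, on chr10:81396191-81431919, carried no site called in both WT lists. WT replicate 2 alone held a 6.02-fold region at chr10:81431552-81431816, 266 bp inside the upper gene end. Both cKO lists held a region elsewhere in the body, chr10:81416916-81417181, with 7.85 and 5.40. The summits of these cKO regions were 12 bp apart, and neither WT list had a region there.

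Over the family, 38 sites were in both WT lists and 36 of them were WT-only. Genome-wide, 91.5% of sites in both WT lists overlapped no cKO region and 8.5% did. At NFI genes 2 of the 38 did, at Nfia and Nfix; without WT replicate 2, 4 sites of WT replicate 1 did. With the lower WT fold divided by 2, 15 of the 36 sites exceeded the smallest callable cKO folds of 3.18 and 3.29, so a weaker signal in the cKO could go uncalled at the others. Of the 7 NFI sites in both cKO lists, 3 overlapped no WT region, and genome-wide 46.5% of such sites did not.

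The NFI sites were of ordinary strength. The median of the mean WT folds was 7.45 over the 36 WT-only sites and 7.51 over all 9232 in the genome, and 18 of the 36 lay above the latter. Across the 38 sites in both WT lists the replicates' log2 folds were related with Pearson's r of 0.582 and a rank correlation of 0.477. These are descriptions over sites that share 2 libraries. WT summits of the replicates were a median of 80 bp apart at these sites and 56 bp over all sites in both WT lists.

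The 100 kb limit and neighbouring genes left some regions just outside. At Nfib the outermost regions counted lay 98559 and 99522 bp out, at 4.67 and 5.39-fold in WT replicate 2, and the nearest not counted lay 113120 bp out at 6.61-fold. At Nfia a 4.22-fold region of WT replicate 2 lay 101170 bp out. Nfic and Nfix have close neighbours. Regions 11842 and 11834 bp below Nfic, at 18.01 and 18.88 in WT replicates 1 and 2, belong to Dohh. Regions 8376 and 8354 bp above Nfix, at 11.9 and 15.4, belong to Dand5.

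Genes with region counts most like those of an NFI gene over the 4 libraries were found by the sum of absolute differences. For Nfib these were Frmd4a (17, 37, 1 and 0 regions in WT replicates 1 and 2 and cKO replicates 1 and 2), Creb5 and Asic2, with sums of 4, 5 and 6. For Nfia they were Sox5 (23, 27, 1 and 2), Gse1 and Tenm3, each at 11. For Nfix they were Pde10a, Prex1 and the proneural gene Neurog2 (8, 9, 2 and 2), each at 5. With counts in only 4 libraries, such likeness is loose.

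Genes that act with NFI factors carried regions too. Of 24 genes known to act upstream, alongside or downstream of NFI factors in the cortex, 19 had at least 1 WT-only site, 3 had a site in both WT lists and a cKO list, and 7 had a region in both cKO lists. Among all protein-coding genes these shares were 16.6%, 3.23% and 6.89%. The median number of WT-only sites per gene was 2 in the list and 0 over all genes. The list was written with earlier results of these data known, so its counts are a description.

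The strongest sites of that list were WT-only. Slc1a3, which encodes a glutamate transporter of glial cells, had 48.1 and 38.6 in WT replicates 1 and 2 at chr15:8659199-8660565. Notch1, a Notch receptor gene whose signal is linked to Nfia induction, had 26.2 and 27.3. Sox9, which encodes a partner of NFIA in early glial cells, had 22.4 and 23.4 at a site 23367 bp outside the gene. Fabp7, the radial glia lipid-binding protein gene, had 19.9 and 23.9 at a site 119 bp outside it. Ezh2 and S100b had no region in any library, and Gfap, an astrocyte filament gene, had 0 and 1 in WT and 1 and 0 in cKO.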

How the data were processed

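PRDM16 binding was mapped by ChIP-seq in 2 WT and 2 cKO libraries, and the 2 input libraries of each genotype were not analysed here. Per the labels' protocols, chromatin was crosslinked with PFA and EGS and sonicated. Bowtie2 2.2.8, MACS2 2.1.1, cutadapt, FastQC and mm10 are listed without settings in the submitters' processing notes, and the sources used here do not name each library's control.

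The authors deposited 1 narrowPeak list per library, so replicates were not pooled. Its fold enrichment is a ratio over local background, and its p-value and q-value are deposited as −log10. The deposited score is the truncated −log10 q times 10 and was not used. The deposited summit offset fixed each summit. Folds are the authors' values, used only to describe and rank.

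With Python 3.11.15, pandas 2.3.3 and SciPy 1.17.1, lines outside chromosomes 1 to 19, X and Y were dropped, 12 to 37 lines per list. Genes came from RefSeq (GRCm38.p6, 21883 protein-coding); the table has no strand or exons, so introns and exons were not separated. Symbols of all 4 NFI genes and all 24 listed partners matched, and start windows were given for Nfia, Nfic and Nfix. Nfib is not in that table. Regions sharing at least 1 bp were joined, and a site counts for a gene when any of its summits does. Solved pileups were whole numbers, within 0.001, for 99.94% to 100% of regions. Assignment and overlap were tested on simulated data. Library counts and shares were compared by exact permutation. Shares carry 95% Wilson intervals, and a count of 0 allows 3 regions. Each permutation p-value is the fraction of groupings of the libraries with a mean difference at least as large. With 2 libraries a genotype, it does not measure the spread between libraries.

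Named sites were the 3 with the highest mean WT fold per gene, all those in a cKO list, those within 1 kb of a gene end or listed start, and the strongest in a single list. The alike genes and the 4 strongest partners were taken by rank. The sites at chr4:82511480-82512021, Dohh and Dand5 were chosen after their values were seen. The genes and lists were chosen with earlier results of these data known. The alternatives were other peak sets, windows, overlaps, left-out libraries and a replicate block.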

Additional observations from a re-analysis of the deposited data

How the results depend on the processing

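All alternatives to the ratio of WT to cKO NFI regions (7) and of their shares (1.36) kept WT above cKO in the mean. The ratio of numbers ran from 5.22 to 9 with a library left out, and that of shares from 1.27 to 1.45. With lists cut to equal length the ratio of numbers fell to 1.73. With only regions of −log10 q of at least 5, the ratio of shares fell to 1.09 and the genotypes overlapped (exact two-sided permutation p = 0.667). Cutting the lists to equal length gave 7 WT-only sites in place of 36, 1 site kept in cKO in place of 2, and a WT density of 0.992 regions per 100 kb in place of 4.81. WT-only sites ranged from 36 to 76 with a library left out, the 76 without WT replicate 1, and kept sites from 2 to 4, the 4 without WT replicate 2. With a WT library left out, a site needed a call in the remaining WT list only. With summits within 200 bp, 1 site was kept. With the replicate number as a replicate block, WT held 4.27 and 11.3 times as many NFI regions as cKO and 1.40 and 1.31 times the share (geometric means 6.94 and 1.36; exact two-sided permutation p = 0.5, the smallest that 2 pairs allow). Site classes join both replicates, so no block applies to them. At the median background the smallest callable fold was 3.01 to 3.53 over the 4 lists, and weaker enrichment was not detectable.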
